A study of Mus musculus with 12 samples.

Results

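The genes described here are 10 feedback regulators of the ERK pathway, chosen by name from the deposited table of 53465 genes and followed in all 12 libraries. They are the MAP kinase phosphatase genes Dusp1, Dusp2, Dusp4, Dusp5, Dusp6, Dusp10 and Dusp16, the Sprouty genes Spry1 and Spry2, and Spred1. All 10 were found in the table and all 10 passed the filter on low counts in every comparison. The study sequenced poly-A RNA of LSKs, the Lin- Sca-1+ c-Kit+ cells of the bone marrow that hold the hematopoietic stem cells and multipotent progenitors, and asked what the loss of Tespa1, a signaling protein first described in thymocytes, does to them at rest and under stress. The 4 groups, of 3 libraries each, were untreated Tespa1+/+, untreated Tespa1-/-, Tespa1+/+ at day 9 after one injection of 150 mg/kg 5-fluorouracil (5-FU), which kills cycling cells, and Tespa1-/- at the same day after the same dose. The knockout is the constitutive allele B6.129S-Tespa1tm1Smoc, backcrossed to C57BL/6 and carried by every cell of the animal, the wild-type mice are littermates according to the labels, and the mice were young adult males. The sources used here do not say whether a library came from 1 mouse or from pooled mice, so p-values measure the spread between these libraries, which may be partly technical.

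ERK is the last kinase of the RAS-RAF-MEK-ERK cascade, which growth factor receptors such as c-Kit and Flt3 switch on in blood progenitors. Active ERK induces the genes of its own brakes. DUSP proteins remove the phosphates from the activation loop of ERK and of the related kinases JNK and p38, while Sprouty and Spred proteins act further up, between the receptor and RAF. Transcripts of several of these genes are short-lived and are widely read as a record of recent ERK signaling.

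The stretches of DNA just upstream of Dusp5 and Dusp1 are shown because these genes hold the 2 rarest motifs searched for among the members. RefSeq promoter windows (GRCm38.p6, 250 bases before to 50 after the start) matched 9 of the 10 members, all but Dusp4. The 250 bases before the start are printed 5′ to 3′ on the strand of the gene, from chr19:53528895-53529144 (plus strand) for Dusp5 and chr17:26508473-26508722 (minus strand) for Dusp1. Capitals mark CArG boxes, the element read by serum response factor with its ERK-phosphorylated partners, and the cAMP response element TGACGTCA or its shorter form TGACG, on either strand.
Dusp5: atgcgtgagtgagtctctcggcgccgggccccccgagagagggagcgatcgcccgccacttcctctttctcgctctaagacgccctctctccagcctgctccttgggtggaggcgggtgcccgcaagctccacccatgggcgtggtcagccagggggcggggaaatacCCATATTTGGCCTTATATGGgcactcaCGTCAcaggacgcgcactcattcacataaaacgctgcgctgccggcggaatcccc
Dusp1: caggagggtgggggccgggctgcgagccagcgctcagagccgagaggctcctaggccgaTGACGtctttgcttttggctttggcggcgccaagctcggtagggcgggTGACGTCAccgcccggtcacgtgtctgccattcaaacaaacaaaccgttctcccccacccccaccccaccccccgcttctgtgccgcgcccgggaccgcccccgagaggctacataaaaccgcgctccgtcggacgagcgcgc
In Dusp5, 2 CArG boxes followed each other without a gap, at positions -82 to -73 and -72 to -63 from the start, and a TGACG on the opposite strand lay at -55 to -51. Only 1.63% of 32851 RefSeq windows held a CArG box, and Dusp5 was the 1 member of 9 that did. In Dusp1, TGACGTCA lay at -143 to -136 and overlapped a TGACG on each strand, and another TGACG lay at -191 to -187. TGACGTCA was found in 1.79% of all windows and in no other member. The shorter TGACG, searched on both strands, was found in 4 of 9 members (Dusp1, Dusp2, Dusp5 and Dusp16) and in 20.8% of all windows. The E-box CACGTG was found in Dusp1 and Dusp2 and in 7.15% of windows, and the EGR motif GCGNGGGCG in Dusp2 and Dusp16 and in 5.55% of windows. No member window held the AP-1 motif TGANTCA, present in 7.81% of windows, or the ETS motif CCGGAAG, present in 8.86%. These are matches of letters in a short window and not sites of binding.

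Libraries held 22118154 to 28275079 counts, and the member with the fewest reads, Dusp10, had 115 to 378 counts per library. Tespa1 itself, the deleted gene, was at 51.0, 43.1 and 46.5 CPM (counts scaled to a fixed library total) in untreated Tespa1+/+ LSKs and 34.5, 34.9 and 34.9 CPM in untreated Tespa1-/- LSKs. After 5-FU it was at 47.1, 55.0 and 57.2 CPM in Tespa1+/+ and 20.7, 19.6 and 17.2 CPM in Tespa1-/-. Every Tespa1-/- library was thus lower than every Tespa1+/+ library of the same treatment, but transcript of the locus was still counted. All 8 LSK marker genes, Kit and Ly6a (Sca-1) included, were detected in every group, and their summed level was 1510 to 1580 CPM in untreated Tespa1+/+, 1262 to 1303 CPM in untreated Tespa1-/-, 1182 to 1200 CPM in Tespa1+/+ after 5-FU and 733 to 776 CPM in Tespa1-/- after 5-FU. The lower sum in Tespa1+/+ after 5-FU lay in Flt3 (611 to 620 CPM untreated, 305 to 323 CPM after 5-FU) and Cd34 (391 to 412 and 262 to 275 CPM), while Kit was at 387 to 431 and 459 to 473 CPM and the median log2 fold change of the 8 was 0.13. The sum of 10 neutrophil genes was 0.769 to 1.39, 4.61 to 5.86, 3.66 to 8.40 and 1015 to 1024 CPM in the same groups, with all 10 detected in Tespa1-/- LSKs after 5-FU and Cd177 at or under 3 counts in the other groups. The sum of 8 erythroid genes was 19.4 to 26.3, 39.7 to 49.4, 36.7 to 49.6 and 360.5 to 379.9 CPM. Their part in the results below was not tested.

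Untreated Tespa1-/- LSKs held less transcript of most ERK feedback genes than untreated Tespa1+/+ LSKs, and Dusp10 and Dusp16 did not pass the test. All 10 genes had a lower mean, and for all 10 every Tespa1-/- library was below every Tespa1+/+ library, an arrangement shown by 14.1% of the 17055 genes tested. At an adjusted p below 0.05, 8 members were called lower and none higher, where 3.59% of all genes tested were called lower (612 genes, and 250 to 283 without any one of the Tespa1-/- libraries or 392 without the second Tespa1+/+ library). With the thresholds of the study (fold change over 1.5, P under 0.05 before adjustment) 6 members were called, against 3.20% of all genes. The median log2 fold change of the 10 was -0.70, beside 0.01 over all genes tested. The summed level of the 10 genes was 1387 to 1494 CPM in Tespa1+/+ and 897 to 944 CPM in Tespa1-/-. Marker genes moved in the same comparison. Of 6 B cell genes tested 3 were called lower, and of 8 LSK genes 2. The B cell sum over 7 genes was 61.1 to 70.1 CPM in Tespa1+/+ and 38.5 to 43.7 CPM in Tespa1-/-. Called higher were 2 of 7 monocyte and macrophage, 1 of 7 erythroid and 1 of 5 megakaryocyte genes, where 1.64% of all genes were. Their part in the values of the feedback genes was not tested. In RNA from bulk samples, fewer cells of a type and less RNA per cell cannot be told apart.

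**Figure D1:**
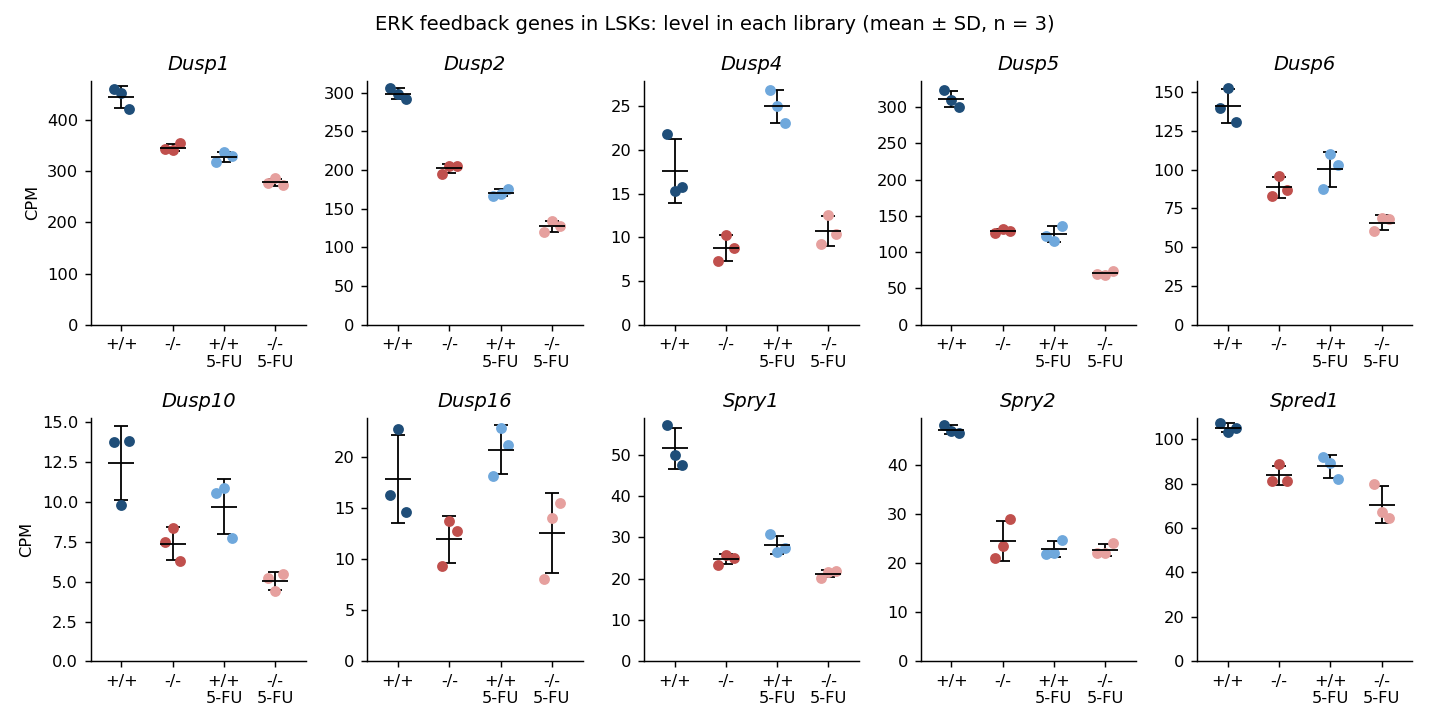
Level of each of the 10 ERK feedback genes in every library, in CPM (vertical axes, each starting at 0). Points are libraries, long bars the mean and whiskers the SD of 3 libraries, in the order untreated Tespa1+/+, untreated Tespa1-/-, Tespa1+/+ after 5-FU and Tespa1-/- after 5-FU. In untreated LSKs the Tespa1-/- points lie below all Tespa1+/+ points for all 10 genes.

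The plot of levels by library shows the widest gap in untreated LSKs for Dusp5, one of the 4 nuclear phosphatases that growth factors induce. Dusp5 (ENSMUSG00000034765, chromosome 19, 53529109 to 53542431, plus strand) encodes a phosphatase that binds ERK alone and holds it in the nucleus. Its level was 323, 309.6 and 300.2 CPM in the Tespa1+/+ libraries and 126, 132 and 129 CPM in the Tespa1-/- libraries. The groups were far apart, and the Tespa1-/- libraries kept 41.9% of the wild-type level (95% interval 38.8% to 45.2%). This was a log2 fold change of -1.26 (SE 0.048, adjusted p = 6.73e-06, from the quasi-likelihood test of edgeR, with Benjamini-Hochberg adjustment across the whole table, as for every p marked edgeR). An antisense transcript, AC137853.2, overlaps 547 exonic bases of Dusp5 in GENCODE M21, and whether the counting used strand is not given in the sources used here.

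Dusp4 (ENSMUSG00000031530, chromosome 8, 34807297 to 34819894, plus strand) encodes a nuclear phosphatase of ERK, JNK and p38 and was the scarcest of these 4. It was at 21.9, 15.3 and 15.7 CPM in untreated Tespa1+/+ and at 7.25, 10.3 and 8.78 CPM in untreated Tespa1-/-. The first wild-type library was higher than the others, and no library crossed to the other group. Dusp4 fell by 0.99 on the log2 scale (SE 0.198, adjusted p = 0.0265, edgeR). The call did not hold without the first Tespa1+/+ library (adjusted p = 0.0656, edgeR), nor without the first, the second or the third Tespa1-/- library (adjusted p = 0.109, 0.0597 and 0.109, edgeR). With replicate numbers as a block it was lost as well (adjusted p = 0.0891, edgeR).

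Dusp2 (ENSMUSG00000027368, chromosome 2, 127336159 to 127338376, plus strand) is known as a phosphatase of activated blood cells. Its level was 306, 298 and 292 CPM in untreated Tespa1+/+ and 195, 205 and 206 CPM in untreated Tespa1-/-. The libraries of each group lay close together, and the log2 fold change was -0.55 (SE 0.046, adjusted p = 3.97e-04, edgeR). Dusp1 (ENSMUSG00000024190, chromosome 17, 26505590 to 26508519, minus strand) encodes MKP-1, an immediate early phosphatase that acts mostly on p38 and JNK. It had the highest count of the 10, at 461, 453 and 421 CPM in Tespa1+/+ and 343, 340.5 and 354 CPM in Tespa1-/-. The groups did not overlap, though the step was small, with a log2 fold change of -0.35 (SE 0.045, adjusted p = 0.00366, edgeR).

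Dusp6 (ENSMUSG00000019960, chromosome 10, 99263231 to 99267489, plus strand) encodes the cytoplasmic phosphatase that is specific for ERK. It was at 139.9, 153 and 131 CPM in untreated Tespa1+/+ and at 83.0, 96.1 and 87.0 CPM in untreated Tespa1-/-. No library crossed between the groups, and the Tespa1-/- level was 63.4% of the wild-type level (95% interval 55.7% to 72.2%). Dusp6 fell by 0.66 on the log2 scale (SE 0.082, adjusted p = 0.00313, edgeR).

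Dusp10 and Dusp16, which encode phosphatases of JNK and p38, were low and did not pass the test in untreated LSKs. Dusp10 (ENSMUSG00000039384, chromosome 1, 184013302 to 184075636, plus strand) was at 13.8, 9.79 and 13.8 CPM in Tespa1+/+ and 7.51, 8.38 and 6.29 CPM in Tespa1-/-. One wild-type library lay near the Tespa1-/- libraries without reaching them, and the log2 fold change was -0.74 (SE 0.199, adjusted p = 0.0797, edgeR). DESeq2 called it (adjusted p = 0.0233). Dusp16 (ENSMUSG00000030203, chromosome 6, 134715468 to 134792625, minus strand) was at 16.3, 22.7 and 14.6 CPM in Tespa1+/+ and 9.35, 13.7 and 12.8 CPM in Tespa1-/-. The spread within each group was wide, with a log2 fold change of -0.57 (SE 0.217, adjusted p = 0.207, edgeR) and a 95% interval from -1.06 to -0.07.

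The Sprouty genes had some of the largest steps in untreated LSKs. Spry1 (ENSMUSG00000037211, chromosome 3, 37639947 to 37644598, plus strand), which restrains receptor signaling upstream of RAF, was at 57.1, 49.97 and 47.6 CPM in untreated Tespa1+/+ and 23.4, 25.8 and 24.9 CPM in untreated Tespa1-/-. The Tespa1-/- level was 48.4% of the wild-type level (95% interval 41.4% to 56.5%), and the log2 fold change was -1.05 (SE 0.098, adjusted p = 6.60e-04, edgeR). An antisense gene, Gm42922, overlaps 710 exonic bases of Spry1 but had only 0 to 19 counts per library. Spry2 (ENSMUSG00000022114, chromosome 14, 105891947 to 105896819, minus strand), its closest relative among the members, was at 48.3, 46.9 and 46.6 CPM in Tespa1+/+ and 21.0, 23.5 and 29.0 CPM in Tespa1-/-. The wild-type libraries were nearly equal and the Tespa1-/- libraries more spread, and Spry2 fell by 0.93 on the log2 scale (SE 0.125, adjusted p = 0.00443, edgeR).

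Spred1 (ENSMUSG00000027351, chromosome 2, 117121374 to 117182279, plus strand) encodes a membrane protein that brings the RAS inactivator neurofibromin to RAS. It was at 107, 103 and 105 CPM in untreated Tespa1+/+ and 81.0, 88.8 and 81.3 CPM in untreated Tespa1-/-. The groups did not overlap, and the log2 fold change was -0.32 (SE 0.063, adjusted p = 0.0266, edgeR). This call was lost whichever of the 6 libraries was left out (adjusted p = 0.0560 to 0.131, edgeR), and with replicate numbers as a block (adjusted p = 0.0816, edgeR).

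At day 9 after 5-FU, Tespa1-/- LSKs again held less transcript of most ERK feedback genes than Tespa1+/+ LSKs. All 10 had a lower mean, although that of Spry2 was lower by 0.01 on the log2 scale. For 9 genes every Tespa1-/- library was below every Tespa1+/+ library, which was true of 15.9% of the 17239 genes tested. The test called 6 members lower and none higher, where 5.78% of all genes were called lower. With the thresholds of the study 5 members were called, against 5.94% of all genes. The median log2 fold change of the 10 was -0.51, beside -0.01 over all genes, and their summed level was 894 to 931 CPM in Tespa1+/+ and 672 to 699 CPM in Tespa1-/-. Marker genes moved here too. Of 8 LSK genes 5 were called lower and none higher, and the median of the 8 was -0.63 on the log2 scale. All 8 erythroid genes were called higher, and their median was 3.57. The Tespa1-/- LSKs after 5-FU were also the group with 1015 to 1024 CPM of neutrophil transcript. What these cell types contributed to the values of the feedback genes was not tested. No library is shared between the comparison of untreated LSKs and that after 5-FU.

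**Figure D2:**
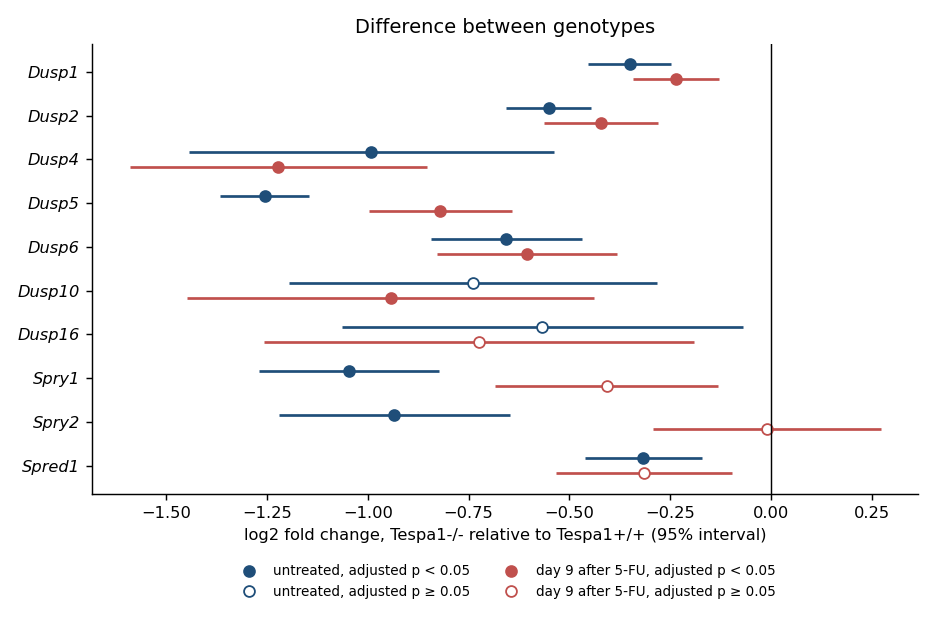
Log2 fold change of each ERK feedback gene in Tespa1-/- relative to Tespa1+/+ LSKs, untreated (blue) and at day 9 after 5-FU (red). Points are estimates from 3 libraries against 3, lines their 95% intervals, and filled points passed an adjusted p of 0.05. All points lie at or left of 0, and Spry2 moves from -0.93 in untreated LSKs to -0.01 after 5-FU.

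Of the nuclear phosphatases after 5-FU, Dusp4 had the largest difference. Its level was 26.9, 25.0 and 23.1 CPM in Tespa1+/+ and 9.18, 12.6 and 10.4 CPM in Tespa1-/-. The gap between the groups was wider than the spread of either, and Dusp4 fell by 1.22 on the log2 scale (SE 0.163, adjusted p = 0.00126, edgeR), to 42.9% of the wild-type level (95% interval 33.2% to 55.3%). Dusp5 was at 122, 116 and 137 CPM in Tespa1+/+ and 69.3, 69.2 and 73.5 CPM in Tespa1-/-. The Tespa1-/- libraries were nearly equal, and the log2 fold change was -0.82 (SE 0.079, adjusted p = 1.90e-04, edgeR), to 56.6% of the wild-type level.

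Dusp2 was at 167, 169 and 176 CPM in Tespa1+/+ after 5-FU and 120.2, 134 and 128 CPM in Tespa1-/-, a log2 fold change of -0.42 (SE 0.063, adjusted p = 0.00229, edgeR). Dusp1 was at 318, 337 and 329 CPM in Tespa1+/+ and 277, 286 and 272 CPM in Tespa1-/-, a log2 fold change of -0.24 (SE 0.047, adjusted p = 0.0106, edgeR). Neither gene had a library in the range of the other group, and both differences were under the 1.5-fold threshold of the study.

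Dusp6, the cytoplasmic ERK phosphatase, was at 87.6, 110.0 and 103 CPM in Tespa1+/+ after 5-FU and 60.6, 68.6 and 68.5 CPM in Tespa1-/-. The lowest wild-type library stood clear of the highest Tespa1-/- library, and the log2 fold change was -0.61 (SE 0.099, adjusted p = 0.00368, edgeR). Dusp10 was at 10.5, 10.9 and 7.74 CPM in Tespa1+/+ and 5.22, 4.43 and 5.49 CPM in Tespa1-/-, and its log2 fold change of -0.94 (SE 0.224, adjusted p = 0.0233, edgeR) passed the test here. That call did not hold when the first or the second Tespa1+/+ library or any Tespa1-/- library was left out (adjusted p = 0.0584 to 0.0837, edgeR). With replicate numbers as a block it was lost as well (adjusted p = 0.0595, edgeR). Dusp16 was at 18.1, 22.8 and 21.2 CPM in Tespa1+/+ and 8.09, 14.02 and 15.5 CPM in Tespa1-/-. The first Tespa1-/- library was well below the others, and the difference of -0.73 on the log2 scale missed the threshold (SE 0.237, adjusted p = 0.0783, edgeR). DESeq2 called it (adjusted p = 0.0220), as did the fit with replicate numbers as a block (adjusted p = 0.0492, edgeR) and the thresholds of the study.

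None of the 3 upstream inhibitors passed the test on these 6 libraries, but the calls for Spry1 and Spred1 depended on the fit. Their unadjusted p was 0.00861 and 0.00972. Both were called by DESeq2 (adjusted p = 0.0315 and 0.0233), by edgeR with all 12 libraries in one fit (adjusted p = 0.0160 and 0.0231) and by edgeR on library totals without TMM (adjusted p = 0.0451 and 0.0454). Spred1 was also called among genes with 10 counts in every library (adjusted p = 0.0490, edgeR). Spry1 was at 30.7, 26.4 and 27.4 CPM in Tespa1+/+ and 20.2, 21.6 and 21.9 CPM in Tespa1-/-, without overlap, and its log2 fold change was -0.41 (SE 0.123, adjusted p = 0.0593, edgeR). Spry2 was at 21.9, 22.1 and 24.8 CPM in Tespa1+/+ and 22.1, 22.03 and 24.1 CPM in Tespa1-/-. The libraries of both genotypes were interleaved, with a log2 fold change of -0.01 (SE 0.125, adjusted p = 0.972, edgeR) and a 95% interval from -0.29 to 0.27. Spred1 was at 91.9, 89.1 and 82.2 CPM in Tespa1+/+ and 79.9, 67.0 and 64.6 CPM in Tespa1-/-. The first Tespa1-/- library was just under the lowest wild-type library, and the log2 fold change was -0.31 (SE 0.097, adjusted p = 0.0643, edgeR). Without that library the call was made (log2 fold change -0.41, adjusted p = 0.0270, edgeR).

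Whether the genotype difference itself changed with 5-FU was tested as an interaction on all 12 libraries, where a positive value means a smaller deficit in Tespa1-/- LSKs after 5-FU than before. The test called 3 members positive and none negative, against 3.02% of the 18696 genes tested called positive (564 genes, and 352 to 372 without any one of the untreated Tespa1-/- libraries or 347 without the second Tespa1-/- library after 5-FU). Spry2 had the largest value, 0.93 (SE 0.169, 95% interval 0.57 to 1.29, adjusted p = 0.00597, edgeR). Spry1 followed with 0.64 (SE 0.142, 95% interval 0.34 to 0.95, adjusted p = 0.0191, edgeR), and Dusp5 had 0.44 (SE 0.089, 95% interval 0.25 to 0.63, adjusted p = 0.0114, edgeR). By the thresholds of the study 2 members, Spry1 and Spry2, were called, against 4.16% of all genes. The Spry1 call did not hold when the first untreated Tespa1-/- library, the second or the third Tespa1+/+ library after 5-FU, or the second or the third Tespa1-/- library after 5-FU was left out (adjusted p = 0.0504 to 0.0607, edgeR).

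**Figure D3:**
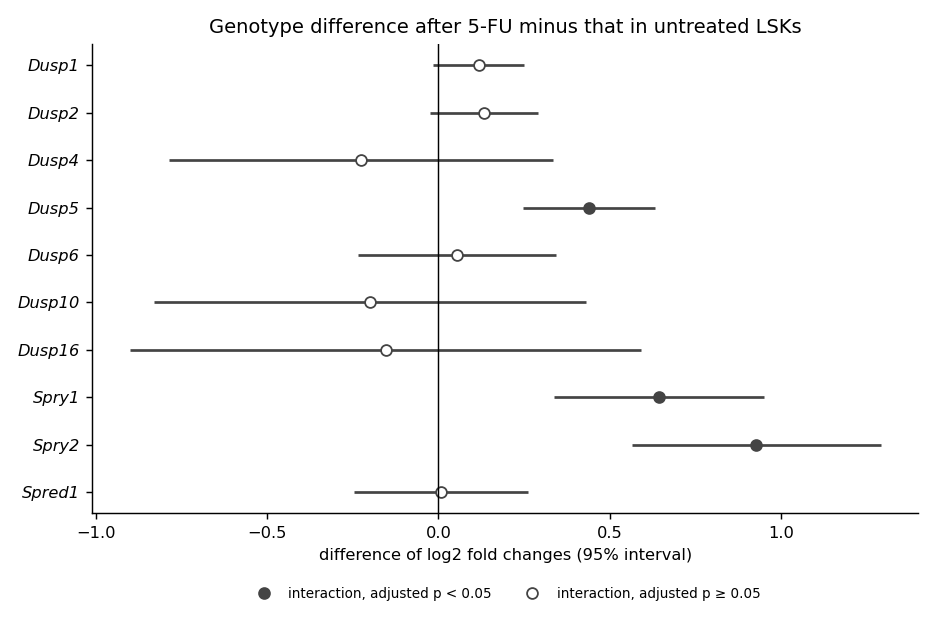
Difference of log2 fold changes for each ERK feedback gene, the genotype difference after 5-FU minus that in untreated LSKs, from 12 libraries. Points are estimates, lines 95% intervals, and filled points passed an adjusted p of 0.05. Spry2 (0.93), Spry1 (0.64) and Dusp5 (0.44) lie to the right of 0, and the intervals of the other 7 include 0.

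The other 7 members did not pass the interaction test. Dusp1 and Dusp2 had values of 0.12 (95% interval -0.01 to 0.25) and 0.13 (95% interval -0.02 to 0.29), and Dusp6 and Spred1 had 0.06 (95% interval -0.23 to 0.34) and 0.01 (95% interval -0.25 to 0.26). The scarcer genes were measured less tightly, with -0.23 for Dusp4 (95% interval -0.79 to 0.34), -0.20 for Dusp10 (95% interval -0.83 to 0.43) and -0.15 for Dusp16 (95% interval -0.90 to 0.59). All 7 intervals include a larger as well as a smaller deficit.

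The values by treatment show where the change in Spry1, Spry2 and Dusp5 sat. The comparisons of treatments share their libraries with the comparisons of genotypes and are therefore given as values of their own. In Tespa1+/+ LSKs, 6 members were called lower at day 9 after 5-FU than untreated and none higher, where 4.18% of the 17002 genes tested were called lower (711 genes, and 413 to 434 without any one of the libraries after 5-FU or 428 without the second untreated library). By the thresholds of the study 4 were called lower, against 3.54% of genes. For 7 members every library after 5-FU was below every untreated library, which was true of 15.5% of genes. The median log2 fold change of the 10 was -0.45, beside 0.01 over all genes. Dusp5 fell by 1.30 (SE 0.072, adjusted p = 1.80e-05, edgeR), to 40.6% of its untreated level. Spry2 fell by 1.03 (SE 0.108, adjusted p = 5.49e-04, edgeR) and Spry1 by 0.85 (SE 0.113, adjusted p = 0.00202, edgeR), to 49.1% and 55.3% of their untreated levels. Dusp2 fell by 0.79, Dusp6 by 0.48 and Dusp1 by 0.42 on the log2 scale. DESeq2 also called Spred1 lower (-0.24, adjusted p = 0.0422). The call for Dusp6 did not hold without the second untreated library or without the first or the third library after 5-FU (adjusted p = 0.0746, 0.0574 and 0.0568, edgeR). Markers of other cell types moved in the same comparison, where 641 of the 17002 genes tested were called higher. All 6 B cell genes tested were called higher, with a sum over 7 genes of 61.1 to 70.1 CPM untreated and 264 to 269 CPM after 5-FU, and 3 of 5 megakaryocyte genes tested were called higher, with a sum over 6 genes of 46.1 to 53.2 and 172 to 193 CPM. Their part in the values of the feedback genes was not tested.

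**Figure D4:**
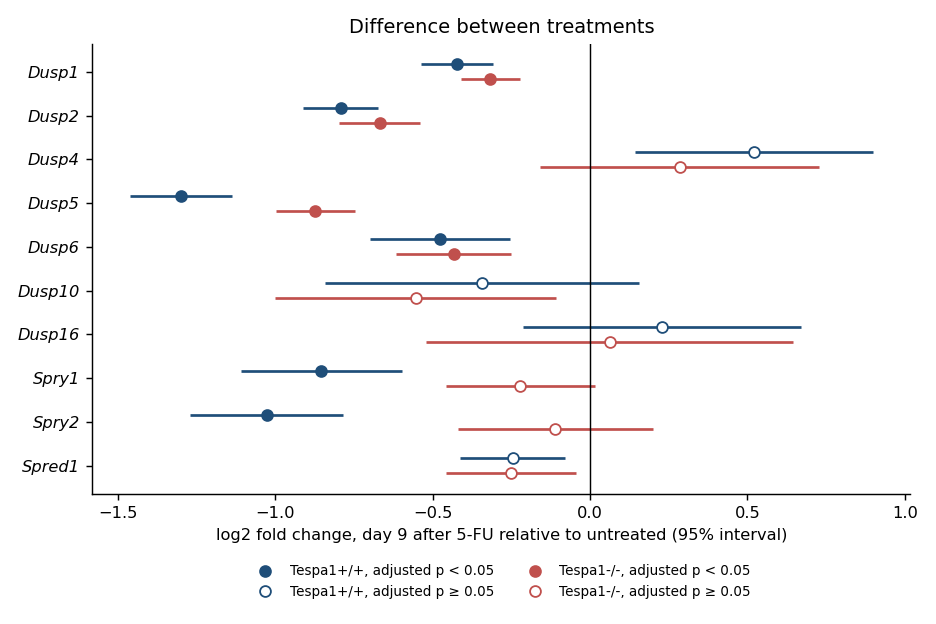
Log2 fold change of each ERK feedback gene at day 9 after 5-FU relative to untreated, in Tespa1+/+ (blue) and Tespa1-/- (red) LSKs. Points are estimates from 3 libraries against 3, lines 95% intervals, and filled points passed an adjusted p of 0.05. Spry1 and Spry2 stand at -0.85 and -1.03 in Tespa1+/+ and at -0.22 and -0.11 in Tespa1-/-, while Dusp4 and Dusp16 lie to the right of 0 in both.

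In Tespa1-/- LSKs, 4 members were called lower after 5-FU and none higher, where 8.64% of the 17228 genes tested were called lower (1489 genes, and 987 or 940 without the first or the second untreated library). By the thresholds of the study 2 were called lower, against 6.58% of genes. For 7 members every library after 5-FU was below every untreated library, which was true of 18.8% of genes, and the median log2 fold change of the 10 was -0.28, beside -0.01 over all genes. The 4 were the phosphatases Dusp5, which fell by 0.87, Dusp2, by 0.67, Dusp6, by 0.43, and Dusp1, by 0.32. Spry1 (-0.22, 95% interval -0.46 to 0.01) and Spry2 (-0.11, 95% interval -0.42 to 0.20) did not pass. Here the B cell genes summed to 38.5 to 43.7 CPM untreated and 286 to 314 CPM after 5-FU, and the megakaryocyte genes to 75.7 to 80.8 and 249.6 to 262 CPM. Neutrophil genes summed to 4.61 to 5.86 and 1015 to 1024 CPM, and erythroid genes to 39.7 to 49.4 and 360.5 to 379.9 CPM. Mast cell and basophil genes summed to 17.9 to 20.4 and 89.6 to 97.6 CPM, and LSK marker genes to 1262 to 1303 and 733 to 776 CPM. The part of these cell types in the values of the feedback genes was not tested. The test of the difference between the genotypes in the changes of the feedback genes with 5-FU is the interaction given above, since both are the same contrast of the 4 groups.

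Dusp4 and Dusp16 were the members with a higher mean after 5-FU in both genotypes. In Tespa1+/+ LSKs every Dusp4 library after 5-FU was above every untreated library, and its log2 fold change of 0.52 did not reach the threshold (SE 0.168, adjusted p = 0.101, edgeR), while DESeq2 called it higher (adjusted p = 0.0474). Without the first untreated library it was 0.69 and passed (adjusted p = 0.0437, edgeR). In Tespa1-/- LSKs the Dusp4 value was 0.28 (95% interval -0.16 to 0.73). Dusp16 had 0.23 (95% interval -0.21 to 0.67) in Tespa1+/+ and 0.06 (95% interval -0.52 to 0.65) in Tespa1-/-.

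Across the 4 groups, untreated Tespa1+/+ LSKs had the highest mean of 8 members and Tespa1+/+ LSKs after 5-FU that of Dusp4 and Dusp16. Tespa1-/- LSKs after 5-FU had the lowest mean of 8 members, and untreated Tespa1-/- LSKs that of Dusp4 and Dusp16. Dusp1 and Dusp2 descended in the same 4 steps, without overlap between neighbours, from 445 ± 21.4 to 346 ± 7.12, 328 ± 9.49 and 278 ± 6.84 CPM for Dusp1 (SD, n = 3) and from 299 ± 6.75 to 202 ± 5.96, 171 ± 4.803 and 127 ± 7.03 CPM for Dusp2 (SD, n = 3), in the order untreated Tespa1+/+, untreated Tespa1-/-, Tespa1+/+ after 5-FU and Tespa1-/- after 5-FU. Dusp5 had 311 ± 11.6, 129 ± 2.66, 125 ± 10.7 and 70.7 ± 2.47 CPM (SD, n = 3) in that order, and the middle groups overlapped. For Spry2, with 47.3 ± 0.884, 24.5 ± 4.09, 22.9 ± 1.61 and 22.8 ± 1.18 CPM (SD, n = 3), untreated Tespa1+/+ stood alone and the other 3 groups were not separated from their neighbours. Spry1 fell into 4 steps without overlap, from 51.5 ± 4.95 to 28.2 ± 2.25 (Tespa1+/+ after 5-FU), 24.7 ± 1.21 (untreated Tespa1-/-) and 21.2 ± 0.885 CPM (SD, n = 3).

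Dusp6 and Spred1 shared the order of Spry1, with overlap between Tespa1+/+ after 5-FU and untreated Tespa1-/-. Their means were 141 ± 11.1, 100.3 ± 11.5, 88.7 ± 6.70 and 65.9 ± 4.62 CPM for Dusp6 (SD, n = 3) and 105 ± 2.11, 87.7 ± 5.00, 83.7 ± 4.40 and 70.5 ± 8.24 CPM for Spred1 (SD, n = 3). Dusp10 had the same order, with 12.5 ± 2.31, 9.71 ± 1.72, 7.39 ± 1.05 and 5.05 ± 0.553 CPM (SD, n = 3), and only the lowest group was clear of its neighbour. Dusp4 was sorted by genotype first, with 25.0 ± 1.89 and 17.6 ± 3.67 CPM in Tespa1+/+ (after 5-FU and untreated) and 10.7 ± 1.71 and 8.77 ± 1.52 CPM in Tespa1-/- (SD, n = 3). Dusp16 had the order of Dusp4, from 20.7 ± 2.39 and 17.9 ± 4.31 to 12.5 ± 3.92 and 11.95 ± 2.30 CPM (SD, n = 3), with overlap between all neighbours. With 3 libraries in each group, an exact permutation test of a single gene cannot go below p = 0.1.

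Levels of different genes can be compared only per length, for which the deposited FPKM (fragments scaled by transcript length and library total) was used. In untreated Tespa1+/+ LSKs, Dusp2 and Dusp5 stood at 123 ± 1.86 and 123 ± 3.58 FPKM (SD, n = 3), Dusp1 at 84.8 ± 3.64, Dusp6 at 23.3 ± 1.87, Spry2 at 22.2 ± 0.215, Spry1 at 15.2 ± 1.32 and Spred1 at 14.6 ± 0.181 FPKM. Dusp4 (6.29 ± 1.25 FPKM), Dusp10 (3.47 ± 0.630 FPKM) and Dusp16 (1.35 ± 0.331 FPKM) were the scarcest. The length behind FPKM was longer than the whole locus in the table for Dusp1 (5142 against 2930 bases), Dusp2 (2373 against 2218 bases) and Dusp6 (5928 against 4259 bases). With length limited to the locus, Dusp1 came first in all 4 groups, at 149 FPKM in untreated Tespa1+/+, so the order among Dusp1, Dusp2 and Dusp5 depends on the length used. For Dusp1 that limit rests on the locus in the deposited table, since the gene in GENCODE M21 runs from 26505590 to 26562128 on chromosome 17, a span longer than the length behind FPKM. Dusp1, Dusp2, Dusp5 and Dusp6 kept the first 4 places in every group with either length. Dusp1 alone made up 30.3% to 31.0% of the members' summed CPM in untreated Tespa1+/+ and 39.8% to 41.2% in Tespa1-/- after 5-FU.

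The rest of the ERK pathway gave the members a setting. Of all genes tested, 3.59% were called lower and 1.64% higher in untreated Tespa1-/- LSKs, and 5.78% lower and 7.34% higher after 5-FU. The counts of each list are to be read against these shares. The genes called higher in untreated LSKs numbered 280. They numbered 82 to 93 without any one of the Tespa1-/- libraries and 159 without the second Tespa1+/+ library. After 5-FU 996 genes were lower and 1265 higher, against 1145 and 1118 on library totals without TMM. No gene passed edgeR's genotype test, in either treatment, among 14 kinases and scaffolds of the RAF-MEK-ERK module or among 14 RAS proteins and RAS GTPase activators. At an unadjusted p under 0.05 there were 5 and 3 such genes in untreated LSKs and 1 and 3 after 5-FU, and DESeq2 called 0 and 1 in each treatment. Their median log2 fold changes were -0.02 and -0.10 in untreated LSKs and 0.06 and -0.18 after 5-FU. The smallest adjusted p in the module was that of the scaffold gene Iqgap1 in untreated LSKs (log2 fold change -0.13, adjusted p = 0.0782, edgeR) and of Braf after 5-FU (log2 fold change -0.23, adjusted p = 0.0828, edgeR). None of 18 adaptors and RAS exchange factors was called in untreated LSKs by edgeR or DESeq2 (3 at an unadjusted p under 0.05), and after 5-FU 3 were higher, Rasgrp1 (2.99), Rasgrp4 (2.80) and Shc1 (0.45), and 1 lower, Plcg1 (-0.46). Rasgrp1 and Rasgrp4 are RAS exchange factors also known from T cells and mast cells. The summed levels of 6 mast cell and basophil genes were 27.0 to 29.6 CPM in Tespa1+/+ and 89.6 to 97.6 CPM in Tespa1-/- after 5-FU. Those of 8 T and NK cell genes were 32.8 to 40.2 and 57.4 to 66.4 CPM. The part of these and other cell types in the Rasgrp1 and Rasgrp4 values was not tested. Among 12 growth factor receptors, Flt3 fell in untreated Tespa1-/- LSKs (-0.30) and Csf1r rose (0.48). After 5-FU, Flt3 (-0.89) and Kit (-0.45) fell, and Epor (1.42) was 1 of 2 that rose.

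**Figure D5:**
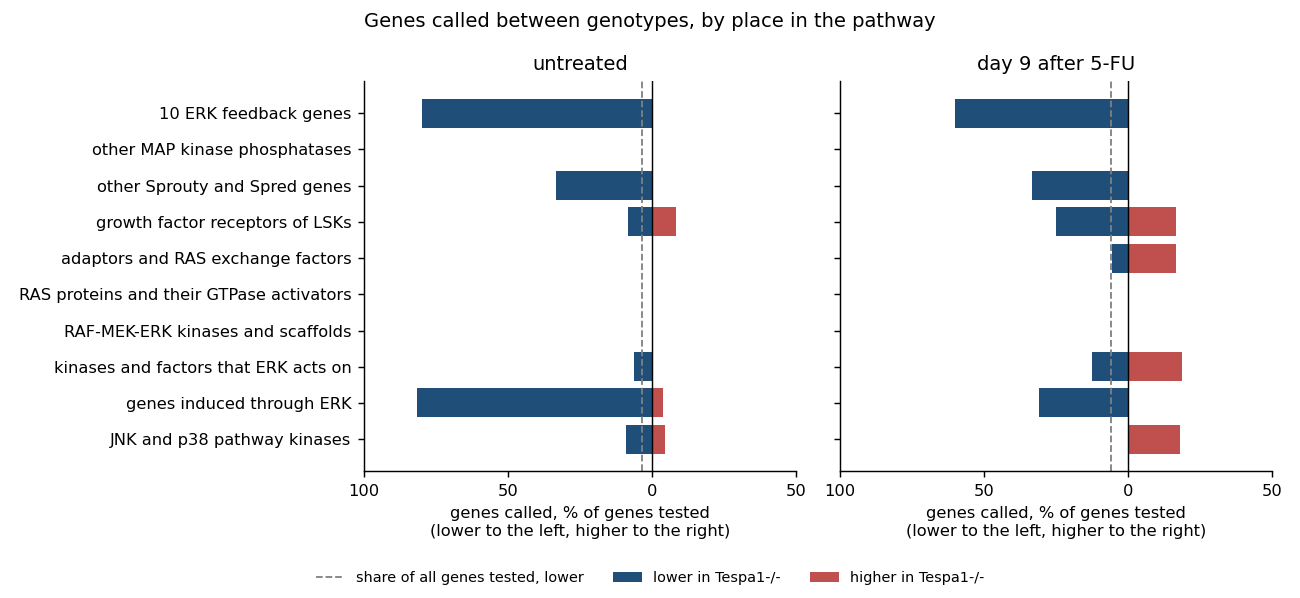
Share of tested genes called between genotypes (adjusted p below 0.05) in each part of the pathway, as a percentage of the genes tested, for untreated LSKs (left) and LSKs at day 9 after 5-FU (right). Blue bars to the left are genes lower and red bars to the right genes higher in Tespa1-/-, and the dashed line is the share of all genes called lower. The feedback genes (8 and 6 of 10) and the genes induced through ERK (22 of 27 and 9 of 29) hold the longest blue bars in untreated LSKs, and the RAF-MEK-ERK kinases none.

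Relatives of the members were tested as well. Of 6 other MAP kinase phosphatase genes, 5 were tested and none was called in either genotype comparison by edgeR or DESeq2 (0 at an unadjusted p under 0.05), with a median log2 fold change of -0.09 untreated and 0.15 after 5-FU. Of the 4 other Sprouty and Spred genes, 3 were tested and 1 was called lower in each genotype comparison. All 3 had a lower mean and an unadjusted p under 0.05 in untreated LSKs, where DESeq2 called 2 lower, and after 5-FU 1 had an unadjusted p under 0.05 and DESeq2 called 1. Spred2 fell in untreated Tespa1-/- LSKs (-0.54, adjusted p = 0.0184, edgeR) and Spred3 after 5-FU (-0.76, adjusted p = 0.0364, edgeR), while Spry4 had -1.53 untreated (adjusted p = 0.0670, edgeR) and -0.55 after 5-FU (adjusted p = 0.332, edgeR). Of 16 genes of kinases and transcription factors that ERK acts on, directly or through partners, 1 was called in untreated LSKs. This was the serum response factor gene Srf (-0.34, adjusted p = 0.0205, edgeR), while 6 had an unadjusted p under 0.05 and DESeq2 called 4 lower. After 5-FU 3 were higher, the kinase genes Rps6ka1 (0.40), Rps6ka2 (1.28) and Rps6ka4 (0.55), and 2 lower, one of them Elk3 (-0.58). Of 22 genes of the JNK and p38 pathways, on which Dusp1, Dusp10 and Dusp16 act, 2 fell in untreated Tespa1-/- LSKs, Gadd45b (-1.10) and Map2k3 (-0.79), and Mapkapk3 rose (0.31). After 5-FU none fell and 4 of the 22 rose, beside 7.34% of all genes tested.

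Most other genes that ERK induces were also lower in untreated Tespa1-/- LSKs. Of 27 tested in untreated LSKs, 22 were called lower in Tespa1-/- (3.59% of all genes tested were) and 1 higher, and their median was -0.84 on the log2 scale. The smallest adjusted p-values belonged to the AP-1 gene Fosl2 (-1.34), the survival gene Mcl1 (-0.68), Junb (-0.87) and the urokinase receptor gene Plaur (-1.43). After 5-FU, 9 of 29 were called lower (5.78% of all genes tested) and none higher, with a median of -0.30, led by Egr1 (-0.77), Fosl2 (-0.79), Klf6 (-0.52) and Fosb (-0.30). In the interaction test 11 of the 29 were called positive (3.02% of all genes tested) and none negative, among them Klf2 (0.99), Phlda1 (1.19), Junb (0.61) and Mcl1 (0.37).

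Several feedback genes, Dusp1 among them, are also known to be induced while cells are being isolated, so 24 genes known to rise during tissue handling were read beside them. Their summed level was 15243 to 15814 CPM in untreated Tespa1+/+, 11332 to 11445 CPM in untreated Tespa1-/-, 10405 to 10475 CPM in Tespa1+/+ after 5-FU and 8912 to 9260 CPM in Tespa1-/- after 5-FU. These sums fall in the same order as the means of Dusp1, Dusp2, Dusp5 and Spry2, although for Spry2 only untreated Tespa1+/+ was clear of its neighbour. Of the 24, 16 were called lower and 1 higher in untreated Tespa1-/- LSKs, 10 lower and 1 higher after 5-FU, and 10 positive in the interaction, where 3.59%, 5.78% and 3.02% of all genes tested were called lower, lower and positive. The list shares 8 genes with the 29 induced through ERK. The part of cell isolation in the results of the feedback genes was not tested.

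The genes whose profile over the 12 libraries was most like that of a member were found for the 7 members whose group means spanned at least 1 on the log2(CPM + 1) scale, among 18696 genes, by the root mean square difference of centred log2(CPM + 1) values. The closest match of all was between Dusp5 and Nr4a1 (0.10), an immediate early nuclear receptor gene, followed for Dusp5 by Malt1 (0.18) and Kdm6b (0.18). For Spry1 they were Marcksl1 (0.11), Junb (0.11) and Klf4 (0.12), and for Spry2 Cebpb (0.14), Nfkb2 (0.15) and Nfkbie (0.15). For Dusp2 they were Nfkbid, 1700017B05Rik and Notch1 (0.11 each), for Dusp6 Ccnl1 (0.11), Jmjd1c (0.13) and Padi2 (0.13), and for Dusp10 Smim3 (0.17), Skil (0.17) and Gimap6 (0.18). Dusp4 had no near match, with Ptprm at 0.24, Mx2 at 0.25 and Rnf213 at 0.25. Spry1 and Spry2 were near each other, with a difference of 0.183, which placed Spry1 at rank 16 in the list of Spry2 and Spry2 at rank 28 in the list of Spry1. This was not particular to the Sprouty pair, since Dusp2 and Dusp6 (0.177) and Dusp1 and Spred1 (0.115) were nearer. These likenesses describe the 12 libraries, which share 4 group means.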

How the data were processed

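RNA-seq of sorted LSKs was analysed in 4 groups of 3 libraries, taken from the labels. The authors deposited, for each library, counts of reads per gene without normalization, and the FPKM values made from them. The labels name CASAVA 1.8, HISAT2, StringTie, edgeR and the build GRCm38, and a stranded poly-A kit. Which program counted the reads, and whether by strand, is not given in the sources used here. The dose comes from the study's methods.

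The test was that of edgeR 4.0.16 in R 4.3.3 (filterByExpr with a minimum count of 10, TMM factors, glmQLFit and glmQLFTest) on the 6 libraries of each comparison and, for the interaction, on all 12. P-values were adjusted by the Benjamini-Hochberg method over all genes tested, and a gene was called at an adjusted p below 0.05. Fold changes and SEs are those of the fitted model. CPM used TMM factors over the 12 libraries, and FPKM served only to compare levels between genes. Libraries held 22118154 to 28275079 counts. The detection floor of 3 counts covers counting error only. The scripts were tested on simulated data. Other steps used Python 3.11.15, pandas 2.3.3, NumPy 2.4.6 and matplotlib 3.10.9.

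The members and gene lists were chosen with earlier results of these data known. Named genes are the 10 members, up to 4 genes with the smallest adjusted p per list and comparison, and the 3 most similar profiles of each member whose group means spanned at least 1 (log2). Other genes are named where a result turns on them. The motifs were chosen after the data were seen. The alternatives were scaling by RLE or by library totals alone, dropping the filter or asking for 10 counts in each library, DESeq2 1.42.0, the thresholds of the study, a replicate block, each library left out, and all 12 libraries in one fit. Replicates of a group differed by more than sampling noise (median chi-square 2.08 to 5.87, where sampling alone gives 0.455).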

Additional observations from a re-analysis of the deposited data

Results flagged for a closer look

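For 3 ERK feedback genes the difference between genotypes was itself different after 5-FU and in untreated LSKs, by the interaction test on 12 libraries. The values, the log2 fold change after 5-FU minus that in untreated LSKs, were 0.93 for Spry2, 0.64 for Spry1 and 0.44 for Dusp5. Spry2 fell by 0.93 in untreated Tespa1-/- LSKs and was at -0.01 after 5-FU, where Tespa1+/+ LSKs had come down to the Tespa1-/- level (22.9 ± 1.61 against 22.8 ± 1.18 CPM, SD, n = 3). Spry1 had log2 fold changes of -1.05 and -0.41 in the same comparisons, and Dusp5 of -1.26 and -0.82. The Spry1 call was lost in 5 of 12 fits with a library left out (adjusted p = 0.0504 to 0.0607, edgeR). In the same test 564 of all 18696 genes tested (3.02%) were called positive and 372 negative. Called positive were 10 of 24 genes known to rise during cell isolation, 5 of 8 erythroid and 4 of 10 neutrophil genes. So were 3 of 7 B cell genes and 2 of 6 mast cell and basophil genes, and 3 of 8 LSK genes were called negative. The part of cell isolation and of other cell types in these values was not tested.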

How the results depend on the processing

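Under the alternatives other than leaving out a library, the members called lower between genotypes numbered 6 to 9 in untreated LSKs (8 in the reported fit) and 5 to 9 after 5-FU (6 in the reported fit), and 2 to 3 were called in the interaction. The thresholds of the study left 2 members, in place of 4, called lower by 5-FU in Tespa1-/- LSKs. With a library left out the counts were 6 to 7, 5 to 6, 5 to 6 (5-FU in Tespa1+/+), 4 to 5 (5-FU in Tespa1-/-) and 2 to 3 (interaction), and 8 to 10 members kept the order of their groups. Replicate numbers did not pair the libraries, since deviations of same-numbered libraries correlated at -0.057 to 0.025. With the numbers as a replicate block, 6 members were called in untreated LSKs (Dusp4 and Spred1 were lost), 6 after 5-FU (Dusp10 lost, Dusp16 gained), 6 and 4 by 5-FU in Tespa1+/+ and Tespa1-/-, and 3 in the interaction. Signs changed only for values that passed no test. Spred1 in the interaction was -0.04 on library totals, -0.02 with 10 counts in every library and -0.11 to -0.01 in 4 fits without a library (-0.02, -0.01, -0.06 and -0.11). Without a library, Spry2 after 5-FU was 0.05, 0.01 and 0.01, Dusp16 by 5-FU in Tespa1-/- was -0.09, -0.03 and -0.12 (range -0.12 to 0.30), Spry2 there was 0.03 (range -0.21 to 0.03), and in the interaction Dusp6 was -0.01 and -0.05 (range -0.05 to 0.12) and Dusp16 0.07 (range -0.37 to 0.07). Over all genes, those called lower in untreated Tespa1-/- LSKs numbered 338 with the block, against 612, those lower after 5-FU in Tespa1+/+ numbered 1083 with 12 libraries in one fit, against 711 (549 lower and 765 higher on library totals, against 641 higher), and positive interactions numbered 869 by DESeq2, against 564. With a library left out these counts were 250 to 520, 413 to 581 and 347 to 484, and those lower after 5-FU in Tespa1-/- numbered 940 to 1436, against 1489. The losses included those without an untreated Tespa1-/- library (250 to 283 lower in untreated LSKs, 352 to 372 positive interactions). They also included those without a Tespa1+/+ library after 5-FU (413 to 434 lower after 5-FU in Tespa1+/+). For the interaction, 347 were left without the second Tespa1-/- library after 5-FU. Genes of few counts, Dusp4, Dusp10 and Dusp16, had intervals several times wider than those of Dusp1 or Dusp2.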
